A study of Mus musculus with 6 samples.

Results

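The genes described here are 9 transcription factors of the interferon regulatory factor (IRF) and signal transducer and activator of transcription (STAT) families, Irf1, Irf2, Irf5, Irf7, Irf8, Irf9, Stat2, Stat3 and Stat4. They were given by name and found by symbol among the 55487 genes of each library, and all 9 were among the 14427 genes that passed the filter on low counts. PolyA RNA had been measured in total hematopoietic cells, sorted for the leukocyte surface antigen CD45, from 2 tissues of wild-type C57BL6/J mice: spleen and gut-draining mesenteric lymph node (mLN). Both tissues were freshly prepared and gave 3 libraries each, numbered 1 to 3. The labels give no age and do not say whether animals were pooled or whether each library had its own animal. The p-values therefore rest on variation among these libraries alone, part or all of which may be technical.

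IRF proteins bind DNA through a conserved tryptophan-rich domain that recognises the interferon-stimulated response element. STAT proteins wait in the cytoplasm until a Janus kinase (JAK) at a cytokine receptor phosphorylates them, then pair and enter the nucleus. Type I interferon acts through the complex called ISGF3, to which STAT2 and IRF9 belong, whereas interferon-gamma acts through paired STAT proteins that bind the gamma-activated site. The genes were placed in roles from textbook knowledge, with earlier results of these data known. Irf1, Irf7, Irf9 and Stat2 are themselves induced by interferon, Irf5, Irf8 and Stat4 are tied to particular blood lineages, and Irf2 and Stat3 are expressed in most leukocytes. These roles do not exclude each other, so a lineage-linked or broadly expressed gene may also respond to interferon.

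Promoter stretches from RefSeq (build GRCm38.p6) are shown for the 5 members with a match upstream of a gene start to the core letters of these elements, because IRF and STAT proteins recognise these elements. A match is a description of the letters and does not show binding. The motifs were the interferon-stimulated response element (GAAA, any 2 bases, GAAA), the gamma-activated site (TTC, any 3 bases, GAA), and the composite element of ETS and IRF proteins (GGAA, any 2 bases, GAAA), each searched on both strands in windows of 250 bases before to 50 after a gene start. Capitals mark the matches, and overlapping matches run together as 1 block. All stretches are read 5′ to 3′ on the strand of the gene.
Irf1, chr11:53769894-53769963, plus strand, a gamma-activated site: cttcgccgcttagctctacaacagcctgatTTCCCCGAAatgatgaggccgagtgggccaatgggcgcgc
Irf8, chr8:120736157-120736244, plus strand, a pair of gamma-activated sites: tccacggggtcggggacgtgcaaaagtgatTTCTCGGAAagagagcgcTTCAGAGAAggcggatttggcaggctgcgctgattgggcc
Stat2, chr10:128270248-128270321, plus strand, a response element overlapping a composite element: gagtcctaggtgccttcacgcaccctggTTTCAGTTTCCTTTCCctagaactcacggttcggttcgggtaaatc
Irf2, chr8:46739495-46739560, plus strand, the same 2 elements overlapping, then a gamma-activated site: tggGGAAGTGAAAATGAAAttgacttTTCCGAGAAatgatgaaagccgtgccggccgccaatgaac
Stat4, chr1:52008113-52008182, plus strand, a response element before an inner start of the gene: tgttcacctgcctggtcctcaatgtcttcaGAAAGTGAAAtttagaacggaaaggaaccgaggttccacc

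All 9 members had at least 1 promoter window, 13 windows in all. The response element was found in 3 members (Stat2, Irf2 and Stat4), the gamma-activated site in 3 (Irf1, Irf8 and Irf2), and the composite element in 2 (Stat2 and Irf2). Counted by window, these were 3, 3 and 2 of the 13 windows. Of all 32851 promoter windows of the same length, 3.44% held the response element, 8.30% the gamma-activated site and 2.72% the composite element. The windows of Irf5, Irf7, Irf9 and Stat3 held none of the 3 strings, which says only that these letters are not there. Of the 5 genes with a match, Stat4 was higher in mLN, Stat2, Irf2 and Irf8 were lower, and Irf1 did not pass the test.

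Between spleen and mLN, 8 of the 9 members differed by edgeR's quasi-likelihood test at an adjusted p under 0.05, 4 higher and 4 lower in mLN. Of all genes tested, 45.5% differed, 21.8% higher and 23.8% lower in mLN. The libraries of the tissues did not overlap in CPM for 8 of the 9 members and for 52.9% of all genes tested. Irf7 rose most (log2 fold change 0.88), with Stat4 next (0.73), and Irf5 and Irf8 fell by nearly the same amount (-0.75 and -0.73). The other 5 members had log2 fold changes between -0.19 and 0.13. The median absolute log2 fold change was 0.19 over the members and 0.24 over all genes tested.

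**Figure D1:**
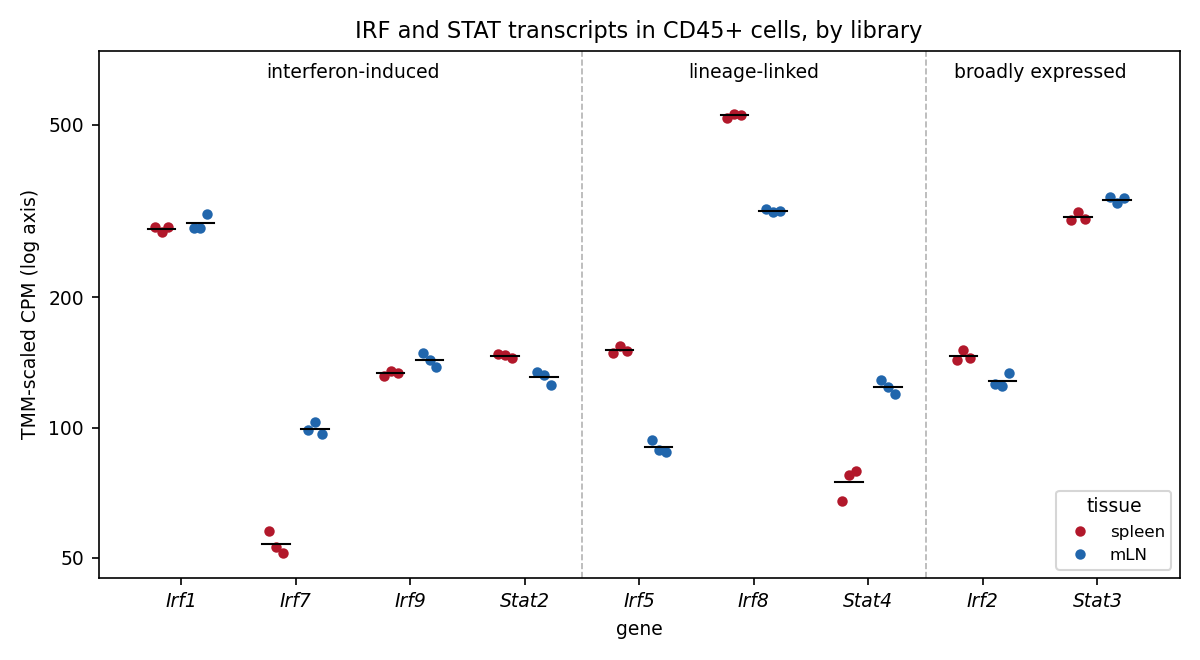
Level of each member in each library, as TMM-scaled CPM (counts relative to library size, scaled between libraries) on a log axis, with 1 point per library, spleen in red and mLN in blue, and a black line at the tissue mean. The tissues are apart for Irf7, Irf5, Irf8 and Stat4, closer for Irf9, Stat2, Irf2 and Stat3, and overlap for Irf1.

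Among the interferon-induced members, Irf7 stood apart from the other 3 in size. Irf7 encodes the factor that amplifies type I interferon production after nucleic acids are sensed (chromosome 7, 141262706 to 141266481, GRCm38). It was at 57.6, 52.9 and 51.3 CPM in the spleen libraries and at 98.6, 103 and 96.4 CPM in the mLN libraries. All mLN libraries were above all spleen libraries, and the lowest mLN value exceeded the highest spleen value by more than the whole range within either tissue. The ratio was 1.84 (log2 fold change 0.88, SE 0.057, 95% interval 0.77 to 1.00, adjusted p = 5.56e-17).

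Irf9, the DNA-binding subunit of ISGF3 (chromosome 14, 55603571 to 55610030), was at 132, 135 and 134 CPM in spleen and 148, 143 and 138 CPM in mLN. The mLN values were spread more widely, and the lowest of them lay just above the spleen values. The log2 fold change was 0.10 (SE 0.039, adjusted p = 0.0328), a call that was lost on leaving out any 1 library except mLN replicate 3 (adjusted p = 0.0597 to 0.184). The gene shares 123 exonic bases with Rnf31 on the same strand.

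Stat2, the transactivating subunit of the same complex (chromosome 10, 128270559 to 128292849), went the other way. It was at 148, 147 and 144 CPM in spleen and 135, 132 and 126 CPM in mLN, so that every mLN library was below every spleen library. The log2 fold change was -0.16 (SE 0.039, adjusted p = 0.000734), and with an offset for effective gene length it was -0.33. That offset lowered the number of calls in general, to 32.3% of all genes tested, 14.8% higher and 17.5% lower in mLN. Stat2 kept its call and direction under every alternative run.

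Irf1, an activator induced by interferon-gamma and also needed for the development of cytotoxic lymphocytes (chromosome 11, 53770014 to 53778374), did not pass the test. It was at 290.1, 282 and 289.7 CPM in spleen and 289, 288 and 311 CPM in mLN. The tissues overlapped, and mLN replicate 3 was the one library that stood higher. The log2 fold change was 0.042 with a 95% interval of -0.024 to 0.11 (adjusted p = 0.319), so changes larger than that interval were not seen at this depth, where each library held 3841 to 5123 counts of the gene.

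The level of Irf7 relative to Stat2, Irf9 and Irf3 differed between the tissues. Per length, in TPM (transcript abundance scaled to a fixed library total, on which genes can be compared), the ratio of Irf7 to Stat2 was 0.609, 0.604 and 0.614 in the spleen libraries and 1.26, 1.37 and 1.36 in the mLN libraries. Irf7 was thus the lower of the pair in every spleen library and the higher in every mLN library. Stat2 itself was lower in mLN, more so with the effective-length offset. The TPM ratio of Irf7 to Irf9 was 0.555 ± 0.046 over the spleen libraries and 0.875 ± 0.066 over the mLN libraries (SD, n = 3 each). There Irf7 stayed the lower of the pair in every library. The TPM ratio of Stat2 to Irf9 was 0.912 ± 0.078 over the spleen libraries and 0.657 ± 0.021 over the mLN libraries (SD, n = 3 each), with no overlap. The TPM ratio of Irf7 to Irf3, the constitutive relative that acts beside it after sensing, was 0.225 ± 0.015 over the spleen libraries and 0.423 ± 0.018 over the mLN libraries (SD, n = 3 each).

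The lineage-linked members all passed the test, Irf5 and Irf8 lower and Stat4 higher in mLN. Irf8, which directs the development of monocytes and type 1 dendritic cells and is also expressed in B cells (chromosome 8, 120736358 to 120756694), was at 518, 530.1 and 527 CPM in spleen and 319, 315 and 316 CPM in mLN. The libraries of each tissue lay close together and the tissues far apart. The fitted log2 fold change was -0.73 (SE 0.029, 95% interval -0.79 to -0.67, adjusted p = 3.47e-24), a fall of 39.7%.

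Irf5, which acts downstream of Toll-like receptors in myeloid and B cells (chromosome 6, 29526625 to 29541871), was at 149, 154 and 151 CPM in spleen and 93.7, 88.6 and 87.7 CPM in mLN. The tissues did not overlap, and the log2 fold change was -0.75 (SE 0.043, adjusted p = 1.03e-18). The TPM ratio of Irf8 to Irf5 was 2.58 ± 0.08 over the spleen libraries and 2.63 ± 0.10 over the mLN libraries (SD, n = 3 each). Its values overlapped between tissues, so the pair kept nearly the same proportion while both fell.

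Stat4, which carries the signal of interleukin-12 in T and NK cells (chromosome 1, 51987148 to 52107189), was at 67.5, 77.9 and 79.3 CPM in spleen and 129, 124 and 120 CPM in mLN. The mLN libraries were all above the spleen libraries, and spleen replicate 1 was the lowest. The log2 fold change was 0.73 (SE 0.052, adjusted p = 2.25e-15), and 0.66 without that library. The TPM ratio of Irf8 to Stat4 was 7.40, 6.01 and 6.32 in the spleen libraries and 2.35, 2.31 and 2.49 in the mLN libraries.

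Markers of the lymphocyte classes moved beside these members. All 15 T-cell markers rose (median log2 fold change 1.15), and their summed level went from between 2114 and 2133 CPM in the spleen libraries to between 4943 and 4997 CPM in the mLN libraries. All 16 B-cell markers fell (median -0.81), from sums of 8481 to 8606 CPM to sums of 4948 to 5060 CPM. No marker of either list was at 0 in a tissue. Stat4 thus had a smaller rise than the median T-cell marker, and Irf5 and Irf8 had falls close to the B-cell median. Spleen replicate 1, the lowest for Stat4, lay within the narrow range of T-cell sums. In bulk RNA, fewer cells of a type and less RNA per cell cannot be told apart, and the part of the marker shifts in these members' values was not tested.

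Markers of dendritic cells and phagocytes, in which Irf5, Irf7 and Irf8 are also active, gave the following values. Of 9 conventional dendritic-cell markers, 7 fell and none rose (median -0.98, summed level 245 to 253 CPM in spleen and 135 to 149 CPM in mLN). Of 14 monocyte and macrophage markers, 5 fell and 3 rose (1 rose with the effective-length offset; median -0.15, sums of 1190 to 1204 CPM in spleen and 1023 to 1050 CPM in mLN). Of 10 markers of plasmacytoid dendritic cells, the main producers of type I interferon, 6 fell and 3 rose (median -0.60, sums of 547 to 557 CPM in spleen and 416 to 424 CPM in mLN). With the effective-length offset 4 of them fell and 3 rose. Bst2, one of those that rose, is also in the list of genes induced through ISGF3. Of 8 markers of migratory dendritic cells, which carry antigen into lymph nodes, 5 rose and 2 fell (median 1.23, sums of 699 to 725 CPM in spleen and 780 to 832 CPM in mLN). Neutrophil markers fell in 12 of 12, with Ly6g and Elane at 0 counts in mLN. Irf7 was higher in the tissue where the summed plasmacytoid, conventional dendritic-cell and phagocyte markers were lower and the summed migratory dendritic-cell markers were higher. The part of these shifts in its value was not tested. Whether lymphocytes contributed to the migratory sums, which include Ccr7 and Ccl5, was not tested either.

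Irf2 and Stat3, the broadly expressed members, passed the test with small differences. Irf2, which competes with Irf1 for its sites (chromosome 8, 46739732 to 46847458), was at 143, 151 and 144 CPM in spleen and 126, 125 and 134 CPM in mLN. Every mLN library was lower, and the log2 fold change was -0.19 (SE 0.040, adjusted p = 0.00011). The TPM ratio of Irf1 to its competitor Irf2 had a mean of 1.87 ± 0.17 over the spleen libraries and of 2.26 ± 0.19 over the mLN libraries (SD, n = 3 each). Those values overlapped, since spleen replicate 1 (2.06) lay above mLN replicate 1 (2.04).

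Stat3, which responds to interleukins 6, 10, 21 and 27 (chromosome 11, 100885098 to 100939540), was at 302, 314 and 304 CPM in spleen and 340.5, 329 and 338 CPM in mLN. The tissues did not overlap in CPM, and the log2 fold change was 0.13 (SE 0.031, adjusted p = 0.000452). An offset for effective length ended that call (adjusted p = 0.281), as did limma on the log2 TPM scale (adjusted p = 0.655). In TPM the values were 162, 170 and 163 in spleen and 190, 152 and 175 in mLN and overlapped through mLN replicate 2.

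**Figure D2:**
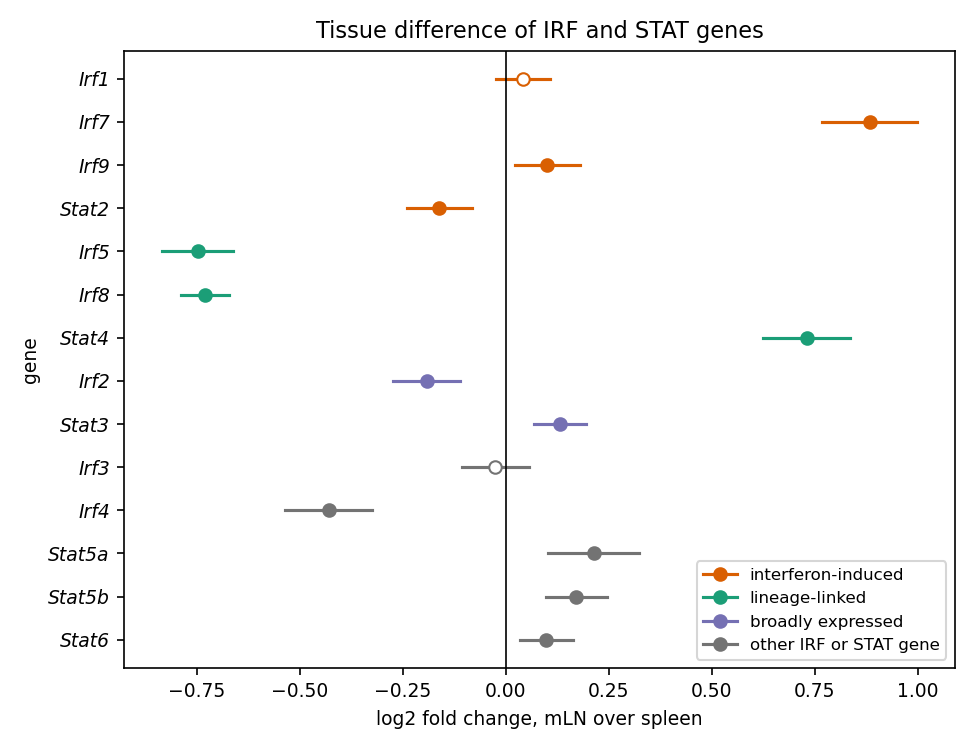
Fitted log2 fold change (mLN over spleen) of each of the 9 members and of 5 other IRF and STAT genes, with its 95% interval, coloured by role. Filled points passed the test and open points, Irf1 and Irf3, did not. Irf7 and Stat4 lie to the right of zero and Irf5 and Irf8 to the left, while intervals of Irf9, Stat2, Irf2 and Stat3 lie near zero.

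Levels per length were ordered differently in the tissues. In spleen the order in TPM was Irf8 (309 ± 4), Irf1 (239 ± 5), Stat3 (165 ± 4), Irf2 (128 ± 9), Irf5 (120 ± 3), Irf9 (96.5 ± 2.0), Stat2 (88.0 ± 5.7), Irf7 (53.5 ± 3.4) and Stat4 (47.3 ± 5.1; SD, n = 3 for each). Among neighbours in that order, the libraries overlapped only between Irf2 and Irf5. In mLN, Irf1 came first at 240 ± 12 TPM, Irf8 followed at 177 ± 2, and Irf5 came last at 67.4 ± 3.3 (SD, n = 3 each). Irf8 and Stat3 (172 ± 19), Irf2 (107 ± 8) and Irf9 (103 ± 8), and Stat2 (67.8 ± 3.1) and Irf5 overlapped in mLN (SD, n = 3 each). Irf7 stood at 90.2 ± 2.8 TPM there and Stat4 at 74.4 ± 3.0 (SD, n = 3 each), so that both lay above Stat2, which they had lain below in spleen.

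**Figure D3:**
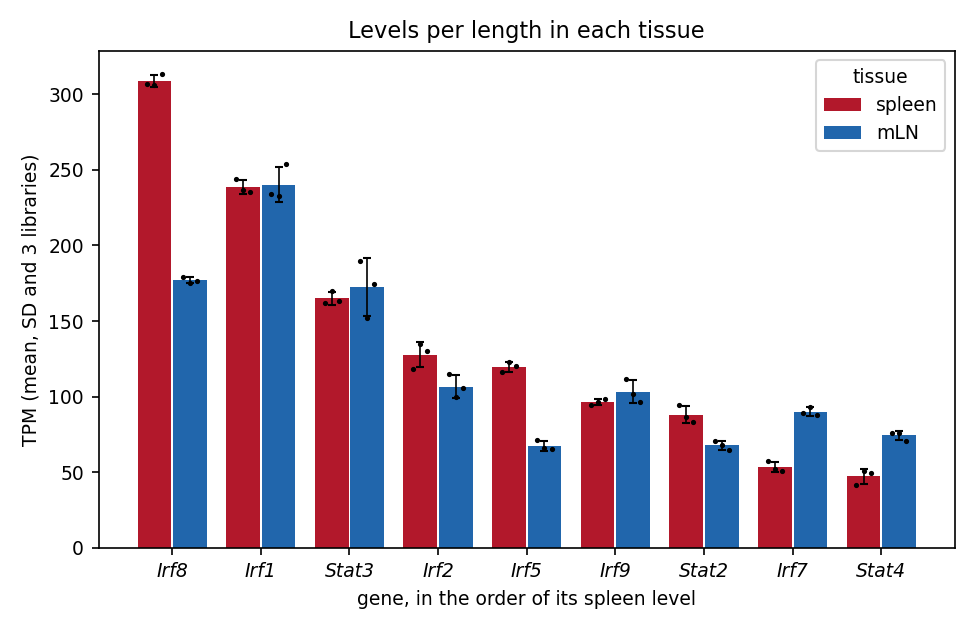
Level per length of each member as TPM, in the order of its spleen level, with bars for the mean of 3 libraries, error bars for the SD and black points for the libraries (spleen red, mLN blue). Irf8 is first in spleen and second in mLN, where Irf1 is first, and Irf5 moves from the middle to the last place.

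Of 5 other IRF and STAT genes (Irf3, Irf4, Stat5a, Stat5b and Stat6), 3 rose and 1 fell. The STAT genes among them rose by 0.21 (Stat5a), 0.17 (Stat5b) and 0.10 (Stat6) on the log2 scale. The Stat6 call was lost without spleen replicate 3 (adjusted p = 0.0645) and with the effective-length offset (adjusted p = 0.143), and limma on log2 TPM called none of these 3. Irf4, a factor of activated lymphocytes and plasma cells, fell by 0.43 on the log2 scale, beside plasma-cell markers that fell in 7 of 8 genes. Irf3 did not pass the test, with a log2 fold change of -0.025 (95% interval -0.11 to 0.056), but was called lower by limma on log2 TPM (-0.16, adjusted p = 0.0292).

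The ligands that feed these factors were scarce. Ifnb1, Ifna1, Ifna2, Ifnl2 and Ifnl3 had no counts in any library, which allows up to 0.0594 CPM in spleen and 0.0665 CPM in mLN (3 counts over the libraries of a tissue, counting error only). Of 15 ligand genes 6 could be tested, of which 4 fell and none rose. They included Ifng, the interferon-gamma gene, at 8.18 ± 1.33 CPM in the spleen libraries and 4.59 ± 0.65 CPM in the mLN libraries (SD, n = 3 each; log2 fold change -0.83). Ebi3, a subunit of interleukin-27, fell by 1.21 on the log2 scale, and its partner Il27 had a log2 fold change of -1.33 at 1.27 ± 0.05 and 0.484 ± 0.220 CPM (SD, n = 3 each). The call of Il27 (adjusted p = 0.0342) was lost on leaving out any 1 library except mLN replicate 2 (adjusted p = 0.0723 to 0.144).

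Of 6 interferon receptor chains, 3 rose and 1 fell (2 rose and 1 fell with the effective-length offset). Ifnar1 and Ifnar2, the chains of the type I receptor, rose by 0.27 and 0.33 on the log2 scale, and the call of Ifnar2 did not hold with the effective-length offset (adjusted p = 0.0632) or on log2 TPM (adjusted p = 0.149). Ifnlr1, the chain specific to type III interferon, had a log2 fold change of -2.02 at 3.91 ± 0.76 CPM in the spleen libraries and 0.936 ± 0.328 CPM in the mLN libraries (SD, n = 3 each). Among receptor chains upstream of STAT3 and STAT4, 7 of the 10 tested rose and 3 fell (5 rose and 3 fell with that offset). Il6st, the shared signalling chain of the interleukin-6 family, rose from 88.7 ± 4.7 to 232 ± 11 CPM and Il6ra from 86.0 ± 2.3 to 175 ± 8 CPM (SD, n = 3 each). Csf3r, a receptor of neutrophils, fell by 2.35 and Il12rb2, through which interleukin-12 reaches STAT4, by 1.00. In the mLN libraries Csf3r was still at 14.6 ± 0.3 CPM (SD, n = 3), where the neutrophil markers summed to 5.10 to 5.67 CPM. Which cells expressed it there was not tested. Jak1 rose by 0.46, Jak3 by 0.27 and Jak2 by 0.15 on the log2 scale, while Tyk2 had a log2 fold change of -0.06 and did not pass the test. Jak2 was not called with the effective-length offset (adjusted p = 0.0518), without mLN replicate 2 (adjusted p = 0.0616) or on log2 TPM (adjusted p = 0.262), and Tyk2 was called lower without mLN replicate 1 (-0.12, adjusted p = 0.0299).

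Genes on the path from nucleic acid sensing to IRF3, IRF5 and IRF7 divided, with 7 of 18 higher and 6 lower in mLN (6 higher and 3 lower with the effective-length offset). Tlr3, a receptor for double-stranded RNA, fell by 1.49 on the log2 scale, Unc93b1, which carries Toll-like receptors to the endosome, by 0.90, and Tlr9, a receptor for DNA, by 0.76. Ikbke, a kinase of IRF3 and IRF7, rose by 1.22, and the cytosolic RNA sensors Ifih1 and Ddx58 rose by 0.66 and 0.61. Among the adaptor and kinase genes, Myd88, Ticam1, Irak1, Irak4 and Tbk1 did not pass the test (log2 fold changes of -0.10 to 0.13). Other adaptors of the list did pass it (-0.20 to 0.38). Tbk1 was called higher without spleen replicate 3 (adjusted p = 0.0295) or mLN replicate 3 (adjusted p = 0.0344). Tlr9, Ddx58, Myd88, Ticam1 and Irak1 were picked out after their values were seen. Of 13 inhibitors of JAK and STAT signalling, 7 rose and 5 fell. Usp18, which blocks the type I interferon receptor and is itself induced by interferon, rose from 8.89 ± 1.32 to 31.6 ± 1.4 CPM (SD, n = 3 each) and Socs2 rose by 1.43, while Pias3 had a log2 fold change of -0.31 and Pias4 of -0.29.

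Of 26 genes induced through ISGF3, 23 rose, 1 fell and 2 did not pass the test (median log2 fold change 0.76, against 0.00 over all genes tested). Ifi44 had the largest rise of the list (2.52) at 3.11 ± 1.62 CPM in mLN (SD, n = 3; not called by limma on log2 TPM, adjusted p = 0.0916), and Ifit1 rose by 2.22, at 30.9, 26.5 and 35.1 CPM in the mLN libraries. Rsad2, an antiviral enzyme also induced by interferon, fell by 0.72 on the log2 scale, which did not hold with the effective-length offset (adjusted p = 0.145). The summed level of the list was 1021 to 1037 CPM in spleen and 1559 to 1609 CPM in mLN.

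Of 24 targets of interferon-gamma and Irf1 tested, 13 rose and 4 fell (median 0.14), and with the effective-length offset 7 rose and 3 fell. Tgtp1, a GTPase against intracellular microbes, rose by 1.21 and Cxcl9, a chemokine for activated T cells, by 0.74, although the call of Cxcl9 did not hold with that offset (adjusted p = 0.248). Casp1 and Gbp3 fell by 0.60 and 0.57. The difference between the medians of the 2 target lists was not tested, and both lists had been chosen with the direction of interferon genes in these data known.

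Partners and targets of IRF8 fell in 14 of 16 genes, with none higher (median -0.87). Xcr1 and Clec9a, surface receptors of type 1 dendritic cells, had log2 fold changes of -2.33 and -2.29. The list shares Xcr1, Clec9a and Batf3 with the dendritic-cell markers and Tlr9 with the nucleic acid sensing genes. Batf3 itself, at 3.37 ± 1.08 CPM in the spleen libraries and 3.18 ± 1.01 CPM in the mLN libraries, did not pass the test (SD, n = 3 each). Spi1, with which IRF8 pairs on DNA, fell from 110.0 ± 3.9 to 54.7 ± 3.6 CPM (SD, n = 3 each). Of 15 STAT3 targets tested, 5 rose and 6 fell (median -0.04), with Junb at 0.91 on one side and Lrg1 at -5.15 and Cebpd at -1.59 on the other. Lrg1 had a mean of 0.288 CPM in mLN, where neutrophil markers were near 0.

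Of 12 STAT4 target genes, 4 rose and 7 fell (median -0.27), while Stat4 rose by 0.73. Eomes and Il18r1, genes of cytotoxic and type 1 lymphocytes, rose by 0.67 and 0.65. Hlx and Il18rap had log2 fold changes of -0.72 and -0.50, and neither was called with the effective-length offset. Hlx was also not called without spleen replicate 1, spleen replicate 2 or mLN replicate 1 (adjusted p = 0.0684 to 0.14), and its libraries overlapped between tissues. With the effective-length offset 2 of the 12 genes rose and 3 fell. Of the 7 NK-cell markers tested, 4 fell and 2 rose (median -0.79), while their summed level was 303 to 316 CPM in spleen and 330 to 334 CPM in mLN. Eomes is in both lists, and the part of the NK-cell markers in these values was not tested.

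**Figure D4:**
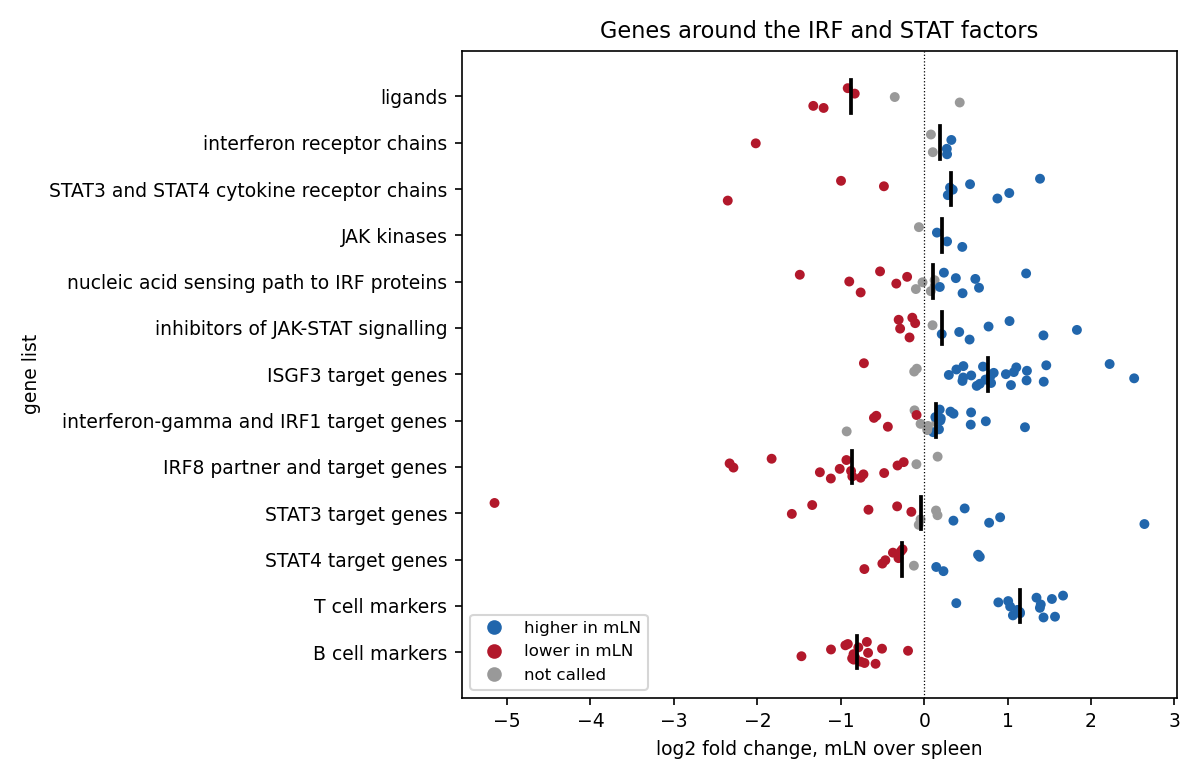
Fitted log2 fold change (mLN over spleen) of every tested gene in each list, with 1 point per gene, blue where higher in mLN, red where lower and grey where the test was not passed, and a black bar at the median of the list. ISGF3 targets lie mostly to the right (23 of 26 higher), IRF8 partners and targets to the left (14 of 16 lower), and T-cell and B-cell markers on opposite sides of zero.

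The genes most like each member in pattern over the 6 libraries were sought among 263 genes of the pathway and marker lists. The 263 leave out the members themselves, so no member could be named for another. Likeness was measured by the root-mean-square difference of centred log2 CPM. For Irf7 the nearest genes were Il27ra (0.019) and Junb (0.044). For both Irf5 and Irf8 they were Ncf1, a subunit of the phagocyte oxidase (0.023 and 0.013), and Xbp1, a factor of secretory cells (0.038 and 0.027). For Stat4 they were Herc6 (0.070) and Xaf1 (0.075), both interferon-induced genes. Irf1 was nearest to Pecam1 and Cd274, Irf9 to Tbk1 and B2m, Stat2 to Ptpn1 and Mcl1, Irf2 to Fcer2a and Mcl1, and Stat3 to B2m and Irak4. With 3 libraries in each tissue this likeness is mostly that of the tissue difference.

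Libraries held 12584244 to 18119551 expected counts, and a member's own count in a library ran from 858 for Irf7 to 9004 for Irf8. Any pair of libraries of 1 tissue differed by 2.52 to 2.97 times what counting noise gives, as the median squared difference over genes, so none was treated as a copy of another. Ptprc, which encodes CD45, stood at 2191 ± 39 CPM in the spleen libraries and 2675 ± 35 CPM in the mLN libraries (SD, n = 3 each). Among 10 markers of CD45-negative stroma and endothelium, Pdpn was at 0 counts in both tissues, Ccl21a in spleen and Cxcl13 in mLN, and Pecam1, which leukocytes also express, made up most of their sum.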

How the data were processed

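Per the submitters' processing notes, reads were processed with STAR and RSEM against mm10. The sources used here do not give versions, parameters, annotation or the strand setting. The deposited tables of the authors hold, per the file headers, an expected count for each gene, estimated by RSEM and not always whole, an effective length, and TPM, the authors' abundance per length scaled to 1000000 in each library. Symbols and 1-based coordinates came from GENCODE M21 (GRCm38, the same assembly as mm10), in which 55141 of 55487 identifiers matched.

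Expected counts were rounded. Genes were filtered with filterByExpr by tissue, libraries scaled with TMM, and the tissues compared in R 4.3.3 by edgeR 4.0.16 (glmQLFit with robust estimation, glmQLFTest), with no covariate beside tissue. Benjamini-Hochberg adjustment covered all 14427 genes that passed the filter. Levels within a gene are TMM-scaled CPM, and levels between genes are TPM. SE and 95% intervals were taken from the F statistic. Limits given for genes at 0 counts cover counting error only. The test was tried on simulated data with known changes.

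Alternatives were RLE size factors, DESeq2 1.42.0, no filter, a filter of 5 CPM in all libraries of a tissue, each library left out, a replicate block, an effective-length offset, dominant gene families left out, and limma 3.58.1 on log2(TPM + 1). The members, roles, gene lists and motifs were chosen with earlier results of these data known. Some genes are in several lists, so the counts of different lists are not independent. Named were the IRF and STAT genes and, from each other list, the called genes that rose most and fell most, up to 2 each, with the 2 nearest genes of each member by pattern. Genes named outside this rule are Tlr9, Ddx58, Myd88, Ticam1, Irak1, Ifng, Jak2, Tyk2, Batf3 and Spi1, chosen after their values were seen. Some genes that the rule names are not reported here. Members share exonic bases with neighbours (Irf1 with Gm17334, Irf5 with Tnpo3, Irf7 with Phrf1, Irf9 with Rnf31, Stat3 with Stat5a, Stat4 with Gm28177), where RSEM's split of reads is uncertain.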

Additional observations from a re-analysis of the deposited data

How the results depend on the processing

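Of the 9 members, 7 kept direction and call under all 14 alternatives. The exceptions were Irf9 and Stat3, neither of which changed direction. Irf9 lost its call without a filter (log2 fold change 0.10, adjusted p = 0.0721), with the stricter filter (0.090), with the effective-length offset (0.15), with limma on log2 TPM (0.10), and on leaving out 5 of 6 libraries, over a range of 0.076 to 0.13 with each library left out. Stat3 lost it with the effective-length offset (0.11) and on log2 TPM (0.055). With the effective-length offset 4656 genes were called. Over all genes, limma on log2 TPM called 4378 genes, 1657 of them higher in mLN (37.8% of calls, against 47.8% in the main analysis), where 6569 and 3139 had been called; the cause was not tested. With the replicate number as a block, 6455 genes and the same number of members (8) were called and no member's call changed. Deviations of same-numbered libraries correlated at 0.0267, 0.0275 and -0.0081 over genes, and not every library correlated best with its own number. Such small correlations cannot tell whether same-numbered libraries shared an animal, which the labels do not say. RLE size factors and leaving out dominant families changed no member's call. No scaling alternative on counts moved the median of all genes by over 0.1 on the log2 scale. Depth limits mainly genes near 1 CPM, such as Il27 and Ifi44.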

Other observations

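Gm20388, a gene model that overlaps Irf8 on the same strand without sharing its exons, went against Irf8. It was at 30.4, 28.6 and 30.7 CPM in the spleen libraries and at 54.3, 54.4 and 38.3 CPM in the mLN libraries (log2 fold change 0.72, SE 0.11, adjusted p = 1.84e-05, edgeR). All mLN libraries were above all spleen libraries, with mLN replicate 3 the nearest to them. Gm28177, which shares exonic bases with Stat4, had at most 0.972 CPM in any library and was not tested. Both were picked out after their values were seen.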
